A study of Mus musculus with 8 samples.

Results

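The vessels of the mouse retina were followed through 10 genes of endothelial cells, pericytes and vascular endothelial growth factor (VEGF) signalling. They were the VEGF ligand gene Vegfa, the receptor genes Kdr, Flt1 and Tek, the endothelial genes Pecam1, Cdh5, Cldn5 and Vwf, and the pericyte genes Pdgfrb and Rgs5. All 10 were found by symbol among the 26824 genes of the deposited count table, and all 10 passed the filter on low counts. RNA sequencing had been done on whole retina from untreated mice aged 1 month, with 2 retinas of individual mice pooled for each library. The series text says that 2 KO samples were left out by the authors without naming them, so all 8 libraries were used. The groups were wild type (WT, 3 libraries) and mice labelled Kv8.2 KO (5 libraries, KO 2 to KO 6), named for the voltage-gated potassium channel subunit encoded by Kcnv2; the labels give no strain, allele or sex. The libraries labelled KO were compared with WT to ask which transcripts differ between these retinas.

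Retinal capillaries are tubes of endothelial cells wrapped by pericytes, and the endothelial cells are sealed to each other by junction proteins that form the inner blood-retina barrier. VEGF-A, made in the retina by glia and neurons, binds the receptor tyrosine kinases encoded by Kdr (VEGF receptor 2, the main signalling receptor) and Flt1 (VEGF receptor 1, which binds VEGF-A tightly and has a soluble form that acts as a decoy). Pericytes are held on the vessel by platelet-derived growth factor acting on the receptor encoded by Pdgfrb. Vessel cells are a small part of the retina, so their transcripts are a small part of a whole-retina library.

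Depth was 17759146 to 25188870 counts per library, at which 3 counts correspond to 0.130 to 0.164 counts per 1e+06 counts (CPM, after TMM scaling, edgeR's correction for library composition). Several libraries stood apart. KO 4 to KO 6 had 3.03% to 3.70% of their counts on mitochondrial genes, against 5.23% and 6.52% in KO 3 and KO 2 and 7.09% to 7.92% in WT. Lens genes took 4.28% of the counts of KO 3 and at most 0.124% elsewhere. WT 3 held 2132 counts of the Y-linked Ddx3y and 9 of Xist, while the other libraries held at most 3 of Ddx3y and at least 30144 of Xist. Kcnv2 itself was at 519 to 551 CPM in WT and at 398 to 585 CPM in the libraries labelled KO, with a log2 fold change of -0.24 (SE 0.14, edgeR adjusted p = 0.275). KO 3 to KO 6 lay below every WT library and KO 2 above every one. In KO 4 to KO 6 against WT the log2 fold change was -0.38 (edgeR adjusted p = 0.000116) and in KO 2 and KO 3 against WT it was -0.04 (edgeR adjusted p = 0.903). The transcript was present in every library, so its gene-level count does not identify knockouts, and the libraries are called by their labels throughout. Rod genes summed to 34000 to 50600 CPM in every library, and the 7 endothelial genes to 239 to 413 CPM. Kdr and Flt1 made up most of the latter, with WT means of 116 and 88.4 CPM out of 241 CPM. Pecam1, Cdh5, Cldn5 and Tek summed to 27.0 to 31.8 CPM in WT and 29.4 to 39.8 CPM in the libraries labelled KO. Transcripts of rod genes and of these endothelial genes were thus present, but whole-retina counts do not show which cells held Kdr or Flt1.

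Of the 10 vascular genes, 3 rose and 1 fell in the libraries labelled KO. Kdr rose to 1.89 times its WT mean, Pdgfrb to 1.90 times and Vwf to 1.95 times, while Vegfa fell to 0.769 times its WT mean. The other 6 genes, Flt1, Tek, Pecam1, Cdh5, Cldn5 and Rgs5, had mean levels 1.12 to 1.29 times those of WT and did not pass the test. By the quasi-likelihood test of edgeR, adjusted by the Benjamini-Hochberg method, 4 of the 10 were called at an adjusted p under 0.05, where 7.58% of all 20167 tested genes were called (4.74% higher and 2.84% lower). For the same 3 genes every library labelled KO lay above every WT library, which held for 10.8% of all tested genes, and for Vegfa every one lay below, which held for 10.1%. The median log2 fold change was 0.33 over the 10 genes and 0.00 over all tested genes. At an unadjusted p under 0.05 (edgeR) were 5 of the 10 and 5506 of all 20167 tested genes. This share is the background for the counts at an unadjusted p given below for lists of genes. In whole tissue, more or fewer cells of a type and more or less RNA per cell cannot be told apart.

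**Figure D1:**
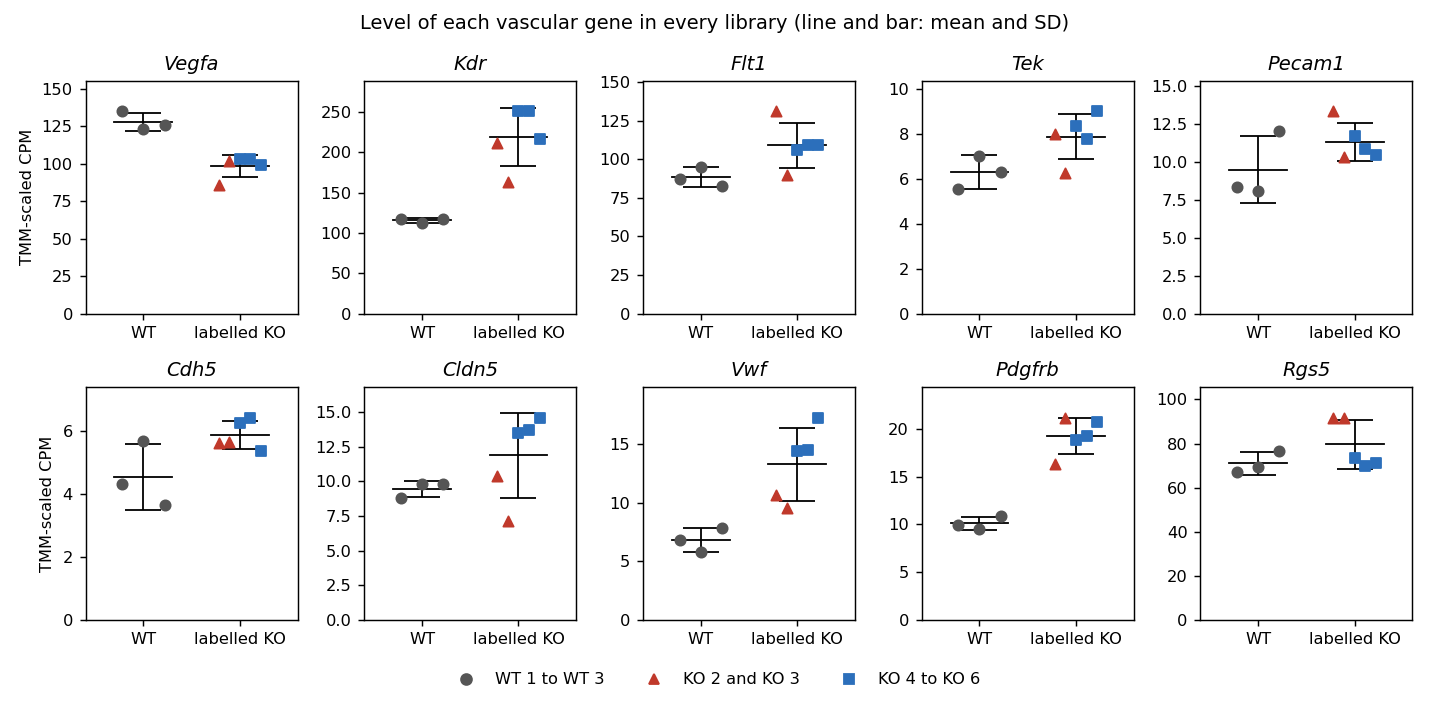
TMM-scaled CPM (vertical axis, from 0) of each vascular gene in the 3 WT libraries (circles), KO 2 and KO 3 (triangles) and KO 4 to KO 6 (squares), with group mean and SD as lines. Kdr, Vwf and Pdgfrb were higher and Vegfa lower in all 5 libraries labelled KO than in all 3 WT libraries, while the groups overlapped for the other 6 genes.

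Levels were compared between genes per kilobase of the longest annotated transcript. In WT, Vegfa was the highest of the 10, at 37.1 ± 1.82 CPM per kilobase (SD, n = 3). It was followed by Kdr (19.5 ± 0.50 CPM per kilobase), Rgs5 (17.3 ± 1.24) and Flt1 (12.8 ± 0.907). The junction gene Cldn5 stood at 6.68 ± 0.418 CPM per kilobase and Pecam1 at 2.75 ± 0.639, and Pdgfrb, Tek, Cdh5 and Vwf at 1.87, 1.35, 1.14 and 0.772. In WT the ranges of neighbours in this order were separate except for Tek and Cdh5. In the libraries labelled KO, Kdr had the highest mean, 36.9 ± 6.09 CPM per kilobase (SD, n = 5), above Vegfa at 28.5 ± 2.08, although their ranges met at 27.6 and 29.8 CPM per kilobase. Pdgfrb (3.55) stood above Pecam1 (3.29), and Vwf (1.5) above Cdh5 (1.47), with overlapping ranges in each case.

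The sequences before the transcription starts of Vegfa, Kdr and Flt1 are shown because they belong to the ligand that fell, the receptor that rose and the receptor that did not pass the test. RefSeq windows (GRCm38.p6) were matched by symbol for 6 of the 10 genes (Kdr, Flt1, Tek, Cldn5, Rgs5 and Vegfa). Each run below holds the 250 bases before a start, 5′ to 3′ in the direction of transcription, with GC boxes (GGGCGG on either strand) in capitals. Vegfa lies on the minus strand at chr17:46032378-46032627, Kdr on the minus strand at chr5:75978456-75978705 and Flt1 on the minus strand at chr5:147726012-147726261.

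Vegfa: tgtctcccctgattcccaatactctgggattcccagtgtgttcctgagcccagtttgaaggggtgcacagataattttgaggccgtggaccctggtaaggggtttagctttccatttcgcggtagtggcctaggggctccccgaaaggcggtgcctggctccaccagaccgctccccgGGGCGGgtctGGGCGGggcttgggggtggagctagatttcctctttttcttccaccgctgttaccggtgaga

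Kdr: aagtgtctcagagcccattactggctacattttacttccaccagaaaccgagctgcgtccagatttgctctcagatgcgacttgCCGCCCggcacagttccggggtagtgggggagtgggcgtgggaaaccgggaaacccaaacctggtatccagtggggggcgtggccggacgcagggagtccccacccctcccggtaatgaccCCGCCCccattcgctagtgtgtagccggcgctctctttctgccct

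Flt1: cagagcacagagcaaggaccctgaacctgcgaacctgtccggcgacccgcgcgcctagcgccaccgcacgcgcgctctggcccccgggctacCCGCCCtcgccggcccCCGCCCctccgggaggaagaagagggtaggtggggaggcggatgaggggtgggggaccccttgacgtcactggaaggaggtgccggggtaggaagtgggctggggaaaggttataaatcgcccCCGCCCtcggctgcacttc

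The GC box letters occurred 2 times before Vegfa and 2 times before Kdr, 3 times before Flt1, 1 time before Cldn5 and 0 times before Tek and Rgs5, and 32.7% of all 32851 windows of this length hold them. The hypoxia response core ACGTG occurred in none of these 6 windows on either strand (16.6% of all windows hold it). The GATA core GATAA occurred 1 time before Vegfa and 1 time before Rgs5 (22.6% of all windows), and the ETS core GGAA occurred 6 times before Vegfa, 4 times before Kdr, 4 times before Flt1, 2 times before Tek, 3 times before Rgs5 and 0 times before Cldn5 (93.4% of all windows). No GC box overlapped another of these motifs. The window before another RefSeq start of Vegfa, inside the gene (chr17:46025164-46025413), is not shown; it holds ACGTG 1 time, on the reverse strand, and the GC box 1 time.

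Vegfa (ENSMUSG00000023951, GRCm38 chromosome 17, 46016993 to 46032369 in GENCODE M21, as for the genes that follow) encodes the ligand VEGF-A. Its level was 135, 123 and 126 CPM across WT 1 to WT 3 and 85.8, 102, 103, 103 and 99.2 CPM across KO 2 to KO 6. Every library labelled KO lay below the lowest WT library, and KO 2 was the lowest. The mean was 128 ± 6.27 CPM for WT (SD, n = 3), against 98.4 ± 7.19 CPM for those labelled KO (SD, n = 5), a log2 fold change of -0.38 (SE 0.09, edgeR adjusted p = 0.0317). It was -0.45 for KO 2 and KO 3 against WT, where it was not called (edgeR adjusted p = 0.0976), and -0.32 for KO 4 to KO 6 against WT. The call was lost in each fit without 1 WT library (edgeR adjusted p = 0.106 to 0.148) and without KO 4, KO 5 or KO 6.

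Kdr (ENSMUSG00000062960, chromosome 5, 75932827 to 75978458) was at 117, 112 and 118 CPM across WT 1 to WT 3. In KO 2 to KO 6 it was at 212, 163, 251, 251 and 217 CPM. All 5 libraries labelled KO were above WT, with KO 3 nearest to it. The log2 fold change was 0.92 (SE 0.14, edgeR adjusted p = 0.00738). Kdr was also called in KO 2 and KO 3 against WT, at 0.70 (edgeR adjusted p = 0.0454), where 0.891% of all genes were called, and in every one of the 10 fits that set 3 libraries labelled KO against WT. Without 1 WT library its log2 fold change was 0.90 to 0.93 with edgeR adjusted p-values of 0.0497 to 0.0597, and the call was lost without WT 1 and without WT 2.

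Flt1 (ENSMUSG00000029648, chromosome 5, 147561604 to 147726011) was at 87.4, 95.1 and 82.7 CPM across WT 1 to WT 3 and at 131, 89.8, 106, 109 and 109 CPM across KO 2 to KO 6. KO 3 lay within the WT range and the other 4 libraries above it. The log2 fold change was 0.30 (95% interval 0.04 to 0.55), with an edgeR adjusted p of 0.127. It was called in the fit without KO 3, at 0.37 (edgeR adjusted p = 0.0257).

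Within a library, the ratio of Kdr to Flt1 counts needs no scaling between libraries. It was 1.34, 1.18 and 1.42 in WT 1 to WT 3 and 1.62, 1.82, 2.37, 2.31 and 1.99 in KO 2 to KO 6, so the lowest library labelled KO was above the highest WT library. Kdr per Pecam1 count was 9.81 to 14.1 in WT and 15.8 to 23.3 in the libraries labelled KO. Kdr per Cdh5 count overlapped, at 19.8 to 32.3 in WT and 28.9 to 40.3 in the libraries labelled KO, with KO 3 below WT 3. Flt1 per Pecam1 count was 6.90 to 11.8 in WT and 8.70 to 10.4 in the libraries labelled KO, which overlapped. These ratios were formed after the values of the single genes had been seen and are given without a test.

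Tek (ENSMUSG00000006386, chromosome 4, 94739289 to 94874976) encodes the angiopoietin receptor of endothelial cells. It was at 5.54, 7.05 and 6.31 CPM across WT 1 to WT 3 and at 8.03, 6.28, 8.37, 7.77 and 9.02 CPM across KO 2 to KO 6. KO 3 again lay within the WT range, and the log2 fold change was 0.32 (95% interval -0.02 to 0.67, edgeR adjusted p = 0.208).

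Of the junction and adhesion genes, Pecam1 (ENSMUSG00000020717, chromosome 11, 106654217 to 106750628), an adhesion molecule of endothelial cells and platelets, was at 8.33, 8.04 and 12.0 CPM across WT 1 to WT 3 and at 13.3, 10.3, 11.7, 10.8 and 10.4 CPM across KO 2 to KO 6. WT 3 lay inside the range of the libraries labelled KO. The log2 fold change was 0.26 (95% interval -0.10 to 0.62, edgeR adjusted p = 0.332), and without 1 WT library it was 0.16 to 0.47 (edgeR adjusted p = 0.154 to 0.666), highest without WT 3 and lowest without WT 2.

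Cdh5 (ENSMUSG00000031871, chromosome 8, 104101625 to 104144511) encodes VE-cadherin, the adhesion protein of endothelial junctions. Its level was 4.33, 5.69 and 3.64 CPM across WT 1 to WT 3 and 5.64, 5.66, 6.25, 6.44 and 5.38 CPM across KO 2 to KO 6, on 79 to 130 counts per library. WT 2 was above 3 of the libraries labelled KO. The log2 fold change was 0.37 (95% interval -0.02 to 0.75, edgeR adjusted p = 0.201). It was 0.57 without WT 2, 0.23 without WT 3 and 0.24 with an offset for GC content, and was called in none of these.

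Cldn5 (ENSMUSG00000041378, chromosome 16, 18776847 to 18778262) encodes claudin 5, the main tight junction protein of the blood-retina barrier. It was at 8.77, 9.78 and 9.81 CPM across WT 1 to WT 3. In KO 2 to KO 6 it was at 10.4, 7.13, 13.5, 13.7 and 14.6 CPM, so KO 3 was the lowest of all 8 libraries and KO 4 to KO 6 the highest. The log2 fold change was 0.33 (95% interval -0.15 to 0.80, edgeR adjusted p = 0.350), with 0.57 in KO 4 to KO 6 against WT (edgeR adjusted p = 0.00114) and -0.11 in KO 2 and KO 3 against WT (edgeR adjusted p = 0.791). It was called in the fit without KO 3, at 0.47 (edgeR adjusted p = 0.0441). Its longest transcript has the highest GC content of the 10 genes (60.5%), and with an offset for GC content the log2 fold change was 0.03.

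Vwf (ENSMUSG00000001930, chromosome 6, 125546774 to 125686679) encodes von Willebrand factor, which endothelial cells and megakaryocytes store and release for platelet adhesion. It was at 6.85, 5.78 and 7.82 CPM across WT 1 to WT 3, on 123 to 176 counts. In KO 2 to KO 6 it was at 10.7, 9.56, 14.4, 14.5 and 17.3 CPM. The groups did not overlap, and KO 2 and KO 3 lay between WT and KO 4 to KO 6. The log2 fold change was 0.96 (SE 0.21, edgeR adjusted p = 0.0269), with 0.57 for KO 2 and KO 3 (edgeR adjusted p = 0.160) and 1.18 for KO 4 to KO 6 against WT. The call was lost in each fit without 1 WT library (edgeR adjusted p = 0.0806 to 0.136) and without KO 4, KO 5 or KO 6. Platelet markers summed to 4.70 to 5.15 CPM in WT and 4.99 to 7.24 CPM in the libraries labelled KO, with 0 of the 2 tested called (edgeR; 0 at an unadjusted p under 0.05, 0 by DESeq2, 1 by limma voom) and Pf4, Ppbp and Gp9 under the filter on low counts; their part in the Vwf difference was not tested.

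Of the pericyte genes, Pdgfrb (ENSMUSG00000024620, chromosome 18, 61045150 to 61085061), the receptor through which pericytes are recruited, was at 9.92, 9.55 and 10.9 CPM across WT 1 to WT 3. It was at 16.3, 21.2, 18.8, 19.3 and 20.7 CPM across KO 2 to KO 6, and every one of these lay above the highest WT library. The mean was 10.1 ± 0.688 CPM for WT (SD, n = 3), against 19.3 ± 1.91 CPM for those labelled KO (SD, n = 5), a log2 fold change of 0.93 (SE 0.12, edgeR adjusted p = 0.00402). Pdgfrb was the only one of the 10 genes called in all 8 fits without 1 library, at 0.90 to 0.98 (edgeR adjusted p = 0.00175 to 0.0394), and it was called in all 10 fits that used 3 libraries labelled KO and in KO 2 and KO 3 alone, at 0.89 (edgeR adjusted p = 0.0444). In KO 2 and KO 3 with the GC content offset it was not called, at 0.82 (edgeR adjusted p = 0.0768).

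Rgs5 (ENSMUSG00000026678, chromosome 1, 169655501 to 169695813), a regulator of G protein signalling that is abundant in pericytes, unlike Pdgfrb was not called without the GC content offset. It was at 67.0, 69.3 and 76.7 CPM across WT 1 to WT 3 and at 91.7, 91.8, 73.5, 69.8 and 71.3 CPM across KO 2 to KO 6. KO 2 and KO 3 were above WT, while KO 4 to KO 6 lay within the WT range, and the log2 fold change was 0.17 (95% interval -0.09 to 0.42, edgeR adjusted p = 0.380). Rgs5 has the lowest GC content of the 10 genes (41.1%), and with the GC content offset it was called, at 0.38 (edgeR adjusted p = 0.00909). Rgs5 per Pdgfrb count was 6.75 to 7.26 in WT and 3.44 to 5.62 in the libraries labelled KO, and this ratio too was formed after the values were seen. The ratio takes no account of GC content, which was 54.9% for Pdgfrb. With the GC content offset Pdgfrb was at 0.73 (edgeR adjusted p = 0.0119), nearer to Rgs5 than without it.

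**Figure D2:**
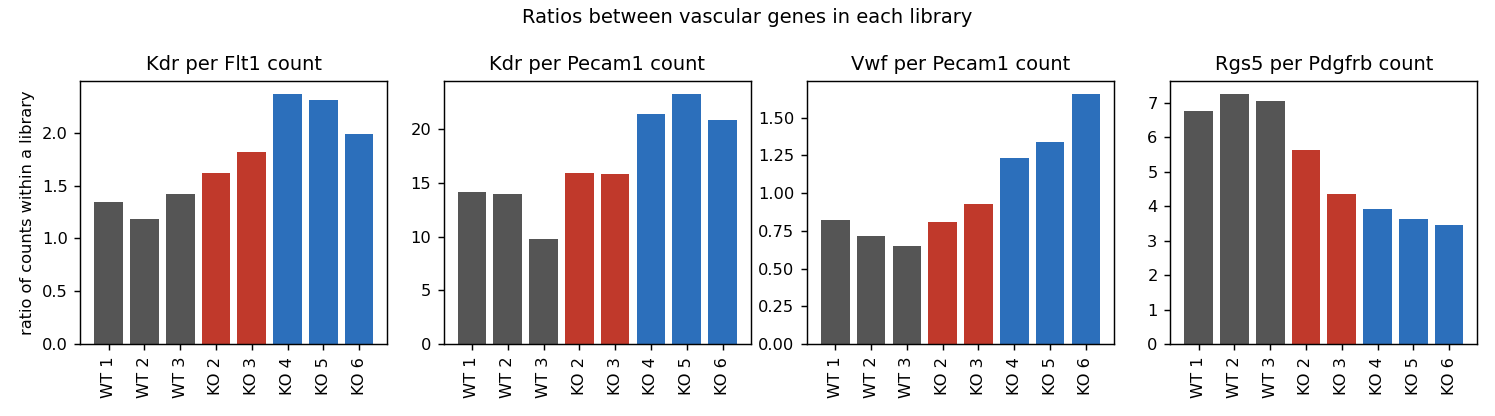
Ratios of counts of vascular genes within each library, with no GC content offset (bars from 0, with WT grey, KO 2 and KO 3 red and KO 4 to KO 6 blue). Kdr per Flt1 was 1.18 to 1.42 in WT and 1.62 to 2.37 in the libraries labelled KO, and Rgs5 per Pdgfrb was 6.75 to 7.26 and 3.44 to 5.62; Vwf per Pecam1 overlapped between the groups, with KO 2 (0.807) below WT 1 (0.822).

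The calls on these genes depended on which libraries were used. In KO 2 and KO 3 against WT, 2 of the 10 genes were called (Kdr and Pdgfrb), where 0.891% of all genes were. In KO 4 to KO 6 against WT, 7 were called (Kdr, Flt1, Tek, Cldn5, Vwf, Pdgfrb and Vegfa), where 42.8% of all genes were, so that this count stands against a high background. Both comparisons share the WT libraries. With the GC content offset 5 were called, the 4 named above and Rgs5, where 7.04% of all genes were. The DESeq2 Wald test called the same 4 genes (18.2% of the 16846 genes to which it gave an adjusted p). Limma voom with library quality weights called 8, all but Pecam1 and Rgs5 (40.9% of all 20167 tested genes).

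**Figure D3:**
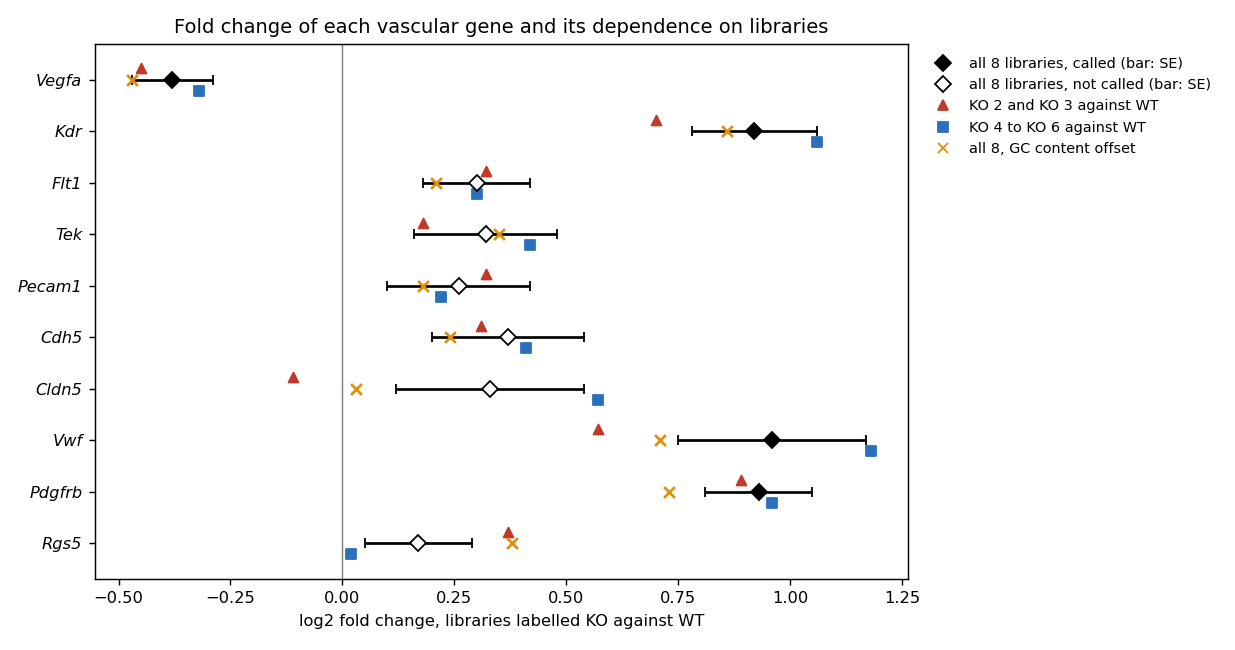
Log2 fold change (horizontal axis) of each vascular gene over all 8 libraries (diamonds, filled where called, bars SE), for KO 2 and KO 3 against WT (triangles), for KO 4 to KO 6 against WT (squares) and with a GC content offset (crosses). Every gene but Cldn5, called or not, kept its side of 0 in all of these fits, while Cldn5 was at -0.11 for KO 2 and KO 3 and 0.57 for KO 4 to KO 6.

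Other genes of vessels and their signals were described by 9 lists, each without the 10 genes above. Among further VEGF ligands and receptors, 0 of 6 tested genes were called (edgeR; 0 at an unadjusted p under 0.05, 0 by DESeq2, 2 by limma voom), with a median log2 fold change of 0.18. Flt4, the receptor of VEGF-C, was at 6.33 ± 0.0988 CPM in WT and 7.69 ± 0.548 CPM for those labelled KO (SD, n = 3 and n = 5; edgeR adjusted p = 0.186). The co-receptor gene Nrp1 had a log2 fold change of 0.34 (edgeR adjusted p = 0.196), and the ligand gene Vegfb one of 0.08 (edgeR adjusted p = 0.624).

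Of 16 further endothelial junction and identity genes, 0 were called (edgeR; 3 at an unadjusted p under 0.05, 0 by DESeq2, 5 by limma voom), 12 had a positive log2 fold change and the median was 0.12. The endothelial transcription factor gene Erg was at 0.62 (edgeR adjusted p = 0.139) and the sialomucin gene Emcn at -0.83 (edgeR adjusted p = 0.0932). Of 10 tested mural cell genes besides Pdgfrb and Rgs5, 0 were called (edgeR; 3 at an unadjusted p under 0.05, 2 by DESeq2, 3 by limma voom), with a median of 0.43. The pericyte genes Notch3 and Abcc9 were at 0.57 and 0.42 (edgeR adjusted p = 0.0806 and 0.0885), and these were the 2 of 10 genes for which the 5 libraries labelled KO all lay above WT (10.8% of all genes). The pericyte gene Higd1b was at -0.58 (edgeR adjusted p = 0.434), and the muscle genes Tagln and Des at -0.12 and -0.01. The smooth muscle gene Acta2 was at 33.6 CPM in KO 3 and at 2.09 to 4.77 CPM in the other 7 libraries. Of 8 genes for angiopoietins, PDGF and their partners, 0 were called (edgeR; 1 at an unadjusted p under 0.05, 1 by DESeq2, 1 by limma voom), with log2 fold changes of -0.63 to 0.36 and a median of 0.06, and the Pdgfrb ligand genes Pdgfb and Pdgfd were at 0.22 and -0.63 (edgeR adjusted p = 0.472 and 0.0964). Pdgfd was at 7.99 to 9.97 CPM in WT and 4.28 to 7.9 CPM in the libraries labelled KO.

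Calls among the 9 lists fell on 8 of 87 tested genes, or 9.2%, near the 7.58% of all tested genes. Of 8 blood-retina barrier transporters, the glucose transporter gene Slc2a1 rose from 192 ± 9.30 to 266 ± 19.5 CPM (log2 fold change 0.47, edgeR adjusted p = 0.0251) and the amino acid transporter gene Slc7a5 rose by 0.53 (edgeR adjusted p = 0.0251); both are also expressed outside vessels. With the GC content offset neither was called (edgeR adjusted p = 0.0514 and 0.107). The list had 5 of 8 positive and a median of 0.22. The organic anion transporter genes Slco1a4 and Slco1c1 were at -0.51 and -0.42 (edgeR adjusted p = 0.133 and 0.131), or -0.29 and -0.27 with the GC content offset. Of 8 tested Notch and tip cell genes, Notch1 (1.11, edgeR adjusted p = 0.0334) and the semaphorin receptor gene Plxnd1 (0.91, edgeR adjusted p = 0.0318) rose, each with KO 2 and KO 3 between WT and KO 4 to KO 6. With scaling by library size alone Notch1 was not called (edgeR adjusted p = 0.05, rounded). The list's median was 0.23. Apln, the apelin gene of tip cells, was at -0.78 (edgeR adjusted p = 0.139), with 1.95 to 2.3 CPM in WT and 0.64 to 1.95 CPM in the libraries labelled KO. The Norrin signalling list, a Wnt-type pathway that forms and keeps the retinal barrier, had 0 of 8 called (edgeR; 2 at an unadjusted p under 0.05, 2 by DESeq2, 3 by limma voom), with 6 of 8 positive and a median of 0.15. The co-receptor gene Lrp5 was at 0.64 (edgeR adjusted p = 0.101) and Ctnnb1, for beta-catenin, at 0.22 (edgeR adjusted p = 0.145), the receptor gene Fzd4 at 0.12 and the ligand gene Ndp at -0.16.

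Of 13 tested genes of the hypoxia response, to which Vegfa also belongs, Epas1 (the HIF-2 alpha subunit, abundant in endothelium) rose from 153 ± 5.80 to 238 ± 34.3 CPM (log2 fold change 0.63, edgeR adjusted p = 0.0243). Bnip3, a mitochondrial target of the response, fell from 160 ± 11.2 to 107 ± 15.3 CPM (-0.58, edgeR adjusted p = 0.0251). The list had 5 of 13 positive and a median of -0.02. Hif1a was at -0.08 and the glycolytic target genes Ldha and Pgk1 were at 0.31 and -0.07 (edgeR adjusted p = 0.793, 0.159 and 0.744). The target genes Pdk1 and Ankrd37 were at -0.32 and -0.37 (edgeR adjusted p = 0.0907 and 0.187), and Ankrd37 was lower in each library labelled KO than in any WT library. On the other side of 0, Ndrg1, Ddit4 and Egln1 were at 0.14, 0.17 and 0.12 (edgeR adjusted p = 0.385, 0.325 and 0.39). Adm, which did not pass the filter on low counts, was at 0.47 to 0.658 CPM in WT and 0.0434 to 0.238 CPM in the libraries labelled KO.

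Of 10 basement membrane genes, the laminin genes Lamc1 (0.50, edgeR adjusted p = 0.0353) and Lama5 (0.61, edgeR adjusted p = 0.0443) rose, and neither was called with the GC content offset (edgeR adjusted p = 0.156 and 0.274). With scaling by library size alone Lama5 was not called (edgeR adjusted p = 0.0705). The list's median of 0.55 was 0.23 in KO 4 to KO 6 against WT. Col4a1 was at 640 CPM and Nid1 at 206 CPM in KO 3, the library with 4.28% of counts on lens genes, against at most 47.0 and 5.51 CPM elsewhere. Lamc1 and Lama5 were also highest in KO 3, at 46.0 and 35.7 CPM against at most 38.5 and 28.9 CPM elsewhere, and were at 0.39 and 0.60 in KO 4 to KO 6 against WT. In that comparison, in which 42.8% of all genes were called, Col4a1 and Hspg2 were at 0.69 and 0.64 (edgeR adjusted p = 2.32e-05 and 0.00619). Col4a2 was at 0.34 there (edgeR adjusted p = 0.0192). The rest of the list was not called in it: Lama4 was at 0.11, Lamb1 at 0.04, Sparc at 0.00, Nid1 at -0.40 and Nid2 at -0.52. The part of lens tissue in these values was not tested. None of the 8 called list genes was called in a fit without 1 WT library (edgeR adjusted p = 0.0771 to 0.185), and in KO 2 and KO 3 against WT only Lamc1 was (0.68, edgeR adjusted p = 0.0462).

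**Figure D4:**
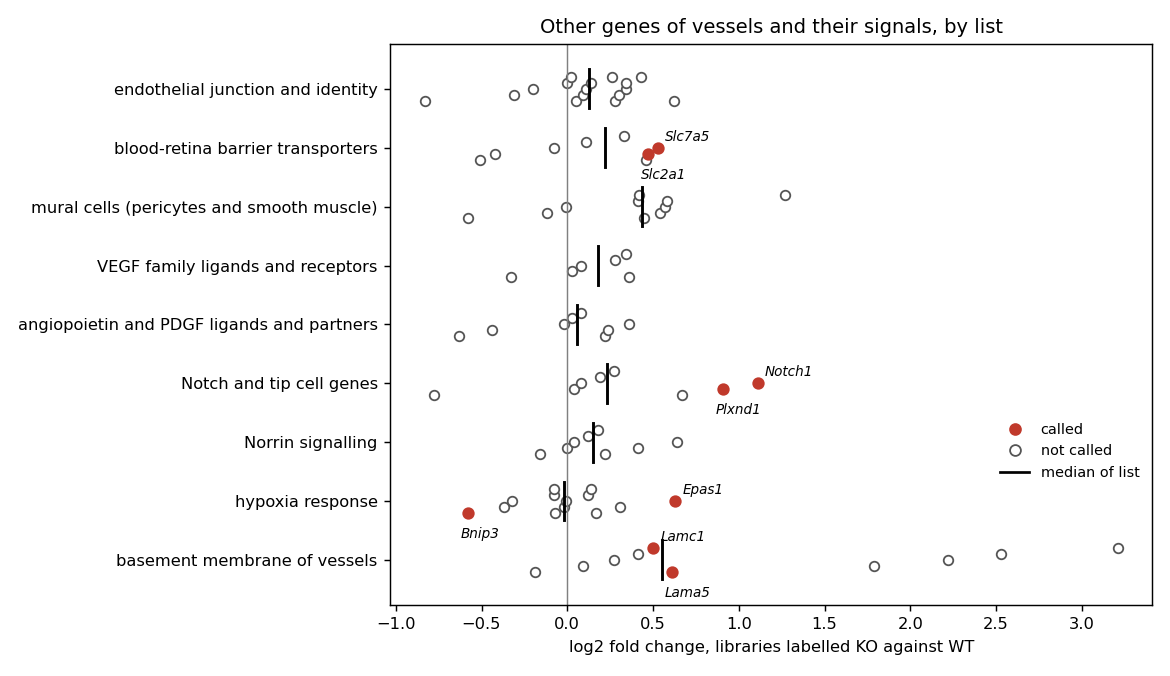
Log2 fold change (horizontal axis) over all 8 libraries of each tested gene of 9 lists (points, filled where called) with the median of each list (vertical bars). The filled points are Slc2a1, Slc7a5, Notch1, Plxnd1, Epas1, Lamc1 and Lama5 on the right and Bnip3 on the left; the open points past 1.5 in the basement membrane list are genes that were highest in KO 3.

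Markers of other cells were described by lists in the same way. The fenestrated endothelium of the choroid is marked by Plvap, which was at 3.64 to 4.0 CPM in WT, 2.26 and 2.76 CPM in KO 2 and KO 3 and 4.65 to 5.52 CPM in KO 4 to KO 6 (log2 fold change 0.09, edgeR adjusted p = 0.868). Pigment epithelium markers summed to 58.8 to 74.6 CPM in WT and 72.3 to 119 CPM in the libraries labelled KO, with 0 of 7 called (edgeR; 2 at an unadjusted p under 0.05, 2 by DESeq2, 4 by limma voom). The list's median was -0.26 with 3 of 7 positive: Rgr, Ttr and Lrat were at 0.58, 0.65 and 0.83, and Rpe65, Best1, Tyr and Pmel at -0.39, -0.41, -0.33 and -0.26. Fibroblast markers summed to 11.6 to 17.2 CPM in WT and 9.75 to 23.6 CPM in the libraries labelled KO, with 0 of 4 called (edgeR; 1 at an unadjusted p under 0.05, 0 by DESeq2, 2 by limma voom), 2 of 4 positive and a median of 0.00. Red blood cell markers summed to 31.6 to 68.7 and 19.0 to 60.7 CPM, with 0 of 4 called (edgeR; 1 at an unadjusted p under 0.05, 1 by DESeq2, 3 by limma voom). None of these 4 was positive and the median was -0.53, or -0.98 in KO 4 to KO 6 against WT. Hbb-bt was at -1.14 (edgeR adjusted p = 0.067), lower in each of the 5 libraries than in any WT library.

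Of 5 astrocyte markers Gfap alone was called, at 19.1 to 20.7 CPM in WT and 47.4 to 78.3 CPM in the libraries labelled KO; this gene also marks stressed Muller glia. The 5 markers summed to 39.1 to 41.0 CPM in WT and 87.3 to 110 CPM in the libraries labelled KO, and the 99.1 CPM of KO 3 held 33.5 CPM of Fgfr3, which was at 0.217 to 0.788 CPM in the other 7 libraries. The medians were 0.78 for astrocyte, 0.31 for Muller glia and 0.43 for microglia markers, with Glul at 0.13, Aqp4 at 0.09, S100b at -0.14 and P2ry12 at -0.07. In KO 4 to KO 6 against WT the 3 medians were 0.12, 0.30 and 0.33. Of 7 Muller glia markers Kcnj10 and Sox9 were called higher, and of 6 microglia markers Tmem119 and Csf1r. Over all marker lists 6 of 58 tested genes were called (10.3%, against 7.58% of all genes). Gfap kept its call without each WT library in turn, while Kcnj10, Sox9, Tmem119, Csf1r and Pdpn lost it, and with the GC content offset Tmem119 and Csf1r were not called (edgeR adjusted p = 0.104 and 0.0604). Of 5 markers of lymphatic endothelium and perivascular macrophages, 4 had a negative log2 fold change, the list's median was -0.97, and 1 was called. The median was -0.28 in KO 2 and KO 3 and -1.13 in KO 4 to KO 6 against WT, and F13a1 was at -0.06 and -2.47 in these comparisons. The macrophage genes Mrc1 and Cd163 were at -0.97 and -1.12, with every library labelled KO below every WT library (10.1% of all genes), F13a1 was at -1.01 and Lyve1 at -0.48 (edgeR adjusted p = 0.133, 0.101, 0.386 and 0.0962). The called gene was Pdpn, which was higher (0.70, edgeR adjusted p = 0.0295). The part of any of these cells in the differences of the vascular genes was not tested.

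Genes with the profile most like that of the 7 endothelial genes were sought among 14687 genes whose log2 CPM averaged 1 or more, by Pearson correlation over the 8 libraries with the mean standardized log2 CPM. These libraries share the groups and their differences in depth and composition, so the values are a description. The 5 highest were Flt4 (0.994), Gars1 (0.994), Bcor (0.993), Cnnm4 (0.991) and Pde1b (0.991), of which Flt4 is the lymphatic and tip cell receptor gene described above. The 5 most like Vegfa were Gm43866 (0.992), Snhg11 (0.991), Ddx17 (0.988), Rbm5 (0.981) and Araf (0.979).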

How the data were processed

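The authors deposited 1 table of whole-number counts per gene for 8 libraries. The submitters' processing notes name Trim Galore, Salmon 1.10.2, DESeq2 and the build GRCm38, with no roles; if Salmon made these counts, they are rounded estimates. Strand setting and annotation release are not given in the sources used here, so overlapping genes could share counts, although no exon of the 10 genes overlaps another gene in GENCODE M21 (GRCm38), which held 22121 of 26824 genes and gave positions, lengths and GC content.

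Counts were TMM-scaled, filtered with filterByExpr (20167 genes kept) and compared with edgeR 4.0.16 (R 4.3.3) by its quasi-likelihood test with no covariate, with Benjamini-Hochberg adjustment over all tested genes. SEs and 95% intervals derive from the F statistic. The procedure was tested on simulated counts. The 10 genes and the lists were chosen with earlier results of these data known. Genes named besides the 10 are Kcnv2, called list genes (at most 4 per list) and the 5 most alike; uncalled list genes named with values were chosen after their values were seen. Alternatives used DESeq2 1.42.0, limma 3.58.1, other scalings and filters, a GC content offset (a smooth per library of log2 CPM deviations on transcript GC content, fitted on genes with a mean of at least 20 counts) and subsets of libraries, including the 10 ways to leave out 2 libraries labelled KO, since the authors left out 2 that are not named. The labels say that the 2 retinas of a library came from individual mice and give no litter or batch. The 3-count floor covers counting error only. No libraries of 1 group agreed within sampling noise (chi-square per degree of freedom at least 5.85).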

Additional observations from a re-analysis of the deposited data

Results flagged for a closer look

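Among the 5 libraries labelled KO, the gap of the lowest or highest library to its nearest neighbour was compared with the whole range on the log2 CPM scale for 25 genes (the 10 vascular genes, Kcnv2 and the 14 called list genes), with a limit of 0.71; chance gives about 1.25 such genes. Vegfa was lowest in KO 2, at 85.8 CPM against 99.2 to 103 CPM in the other 4, with a gap of 0.804 of the range. Pdpn was highest in KO 2, at 98.2 CPM against 61.3 to 64.1 CPM, with a gap of 0.903 of the range. Without KO 2 the log2 fold change of Vegfa was -0.33 (edgeR adjusted p = 0.0196).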

How the results depend on the processing

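Counted over the alternatives, 271 fold changes of the 10 vascular genes kept their direction and their side of the threshold, 40 lost the call, 14 gained it and 5 turned direction. All 5 were Cldn5, in fits with only KO 2 and KO 3: -0.11 against all WT libraries, -0.21 with the GC content offset as well, -0.16 on WT 2, WT 3, KO 2 and KO 3, and -0.18 there with the replicate number as a block or with crossed numbers. For the 14 called list genes 242 kept both and 220 lost the call.

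Of the 10 genes, 1 to 6 were called without each library in turn (132 to 3992 of all genes), 8 by limma voom (8248 of all genes), 4 by the DESeq2 Wald test (3066 of all genes), 2 with KO 2 and KO 3 alone (180 of all genes) and 1 of these, Kdr, with the GC content offset (125), and 7 with KO 4 to KO 6 alone, with and without that offset (5606 and 8416 of all genes). Among the other 9 fits of 3 libraries labelled KO against WT, 2 were called without KO 2 and KO 4 (399 of all genes), without KO 2 and KO 5 (496), without KO 4 and KO 5 (118), without KO 4 and KO 6 (191) and without KO 5 and KO 6 (203), and 3 to 5 in the rest, where all genes called were 645 without KO 2 and KO 6, 2540 without KO 3 and KO 4, 2225 without KO 3 and KO 5 and 2593 without KO 3 and KO 6. Kdr and Pdgfrb were called in all 10 such fits. The cause of these differences was not tested. Other scalings and filters gave 4 of the 10, the same genes.

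Replicate numbers 2 and 3 occur in both groups. The deviations of same-numbered libraries had a correlation of -0.19 over genes, and those of the crossed pairs 0.19. With 2 libraries per group these are the same value with its sign turned. They cannot show whether same-numbered libraries share a litter or batch, which the labels do not give. On these 4 libraries edgeR called 0 of the 10 genes with the replicate block (52 of all genes) and 0 with no block (14 of all genes). At an unadjusted p under 0.05 (edgeR) were 5 of the 10 in each fit, and 1964 (block) and 2263 (no block) of all 19788 tested genes. The crossed pairing, added after seeing the data, called 2 (527 of all genes). The GC content offset on subsets of libraries was also chosen after seeing the data. Counts limit the rarest of the 10 genes most, with 79 to 130 counts of Cdh5 per library.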
